A study of Homo sapiens with 9 samples.

Results

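The human mitochondrial chromosome carries 37 genes, and these were the genes described here, in RNA from HK-2 cells exposed to fine airborne particulate matter with and without lactoferrin. They were every gene with a GENCODE symbol beginning MT-, which were 13 messenger RNA, 2 ribosomal RNA and 22 transfer RNA genes, out of 58884 genes listed for each library. HK-2 is an immortalised line made from epithelial cells of the human renal proximal tubule, and lactoferrin is an iron-binding glycoprotein of milk and of neutrophil granules. Of the 9 libraries, 3 came from control cells given vehicle (labelled 24 h), 3 from cells labelled as exposed to PM2.5 for 24 h, and 3 from cells given lactoferrin for 6 h and then PM2.5 for 18 h. For the pretreated cells the series text gives lactoferrin at 40 mg/ml and PM2.5 at 1 mg/ml, in units that could not be checked. No dose was found for the cells exposed to PM2.5 alone, so whether the doses of these groups differed is not known. There was no group with lactoferrin alone, and the PM2.5 and pretreated groups differed in labelled time in PM2.5 as well as in lactoferrin, so these cannot be told apart. All cells grew in a serum-free keratinocyte medium with bovine pituitary extract and EGF. Nothing in the labels tells whether the 3 replicates of a group were separate cultures. The p-values therefore only set each difference in group means against the spread of these samples, and that spread may be technical.

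Mitochondrial DNA is read from both strands into long precursor RNAs. In most places transfer RNAs sit between the ribosomal and messenger RNAs, and cutting them out, by RNase P at one end and by the nuclease ELAC2 at the other, releases the RNAs on either side. The messenger RNAs encode core subunits of respiratory complexes I, III, IV and V, while all other proteins of mitochondrial transcription, RNA processing and translation are made from nuclear genes. In the proximal tubule, oxidative phosphorylation provides the energy for reabsorbing the filtrate.

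The genes that passed the test with PM2.5 were transfer RNA genes, which does not show that the others were unchanged. Their sequences are shown first, each with the 3 bases of its anticodon in capitals, the bases that pair with a codon. They are the 8 transfer RNA genes called lower with PM2.5, followed by MT-TC and MT-TP, the most abundant transfer RNA genes, which were not. Sequences are those of the GENCODE 29 transcripts, read 5′ to 3′ along the gene's own strand, with positions on GRCh38. A script marked as anticodon the middle of a 7-base loop that had a T before it and an A or G after it and was closed by a stem with at least 3 of 5 pairs.
MT-TD, chrM:7518-7585, plus strand: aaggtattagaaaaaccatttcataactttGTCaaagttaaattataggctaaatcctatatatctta
MT-TW, chrM:5512-5579, plus strand: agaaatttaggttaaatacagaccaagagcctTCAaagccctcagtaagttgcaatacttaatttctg
MT-TS1, chrM:7446-7514, minus strand: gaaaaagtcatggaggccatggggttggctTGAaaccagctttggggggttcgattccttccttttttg
MT-TV, chrM:1602-1670, plus strand: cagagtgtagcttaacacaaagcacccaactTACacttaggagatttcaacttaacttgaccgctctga
MT-TK, chrM:8295-8364, plus strand: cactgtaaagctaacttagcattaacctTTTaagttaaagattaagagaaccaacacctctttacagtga
MT-TY, chrM:5826-5891, minus strand: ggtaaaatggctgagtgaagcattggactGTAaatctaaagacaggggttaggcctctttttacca
MT-TE, chrM:14674-14742, minus strand: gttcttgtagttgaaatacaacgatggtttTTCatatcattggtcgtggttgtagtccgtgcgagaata
MT-TL1, chrM:3230-3304, plus strand: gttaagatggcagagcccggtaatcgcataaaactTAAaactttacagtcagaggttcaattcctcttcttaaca
MT-TC, chrM:5761-5826, minus strand: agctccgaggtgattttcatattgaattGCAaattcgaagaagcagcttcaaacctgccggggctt
MT-TP, chrM:15956-16023, minus strand: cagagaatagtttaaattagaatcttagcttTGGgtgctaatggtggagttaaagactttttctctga

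These 10 genes are 66 to 75 bases long and lie in different places on the chromosome, 5 of them read from each strand. MT-TC and MT-TY share 1 base at position 5826. They had no anticodon in common.

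With PM2.5, 8 of the 37 mitochondrial genes fell and 0 rose. Values are FPKM, fragments scaled to gene length and to the library's fragments, and a gene was called where limma on log2(FPKM + 0.5) gave a Benjamini-Hochberg adjusted p under 0.05 over all 14454 genes tested. All 37 members were among those tested. The 8 were all transfer RNA genes (8 of 22), and no messenger RNA gene (0 of 13) or ribosomal RNA gene (0 of 2) was called. The background was high, since 35.0% of all genes tested were called in this comparison, 16.5% of them lower and 18.5% higher. The median log2 fold change was -0.68 over the 22 transfer RNA genes and 0.03 over the 13 messenger RNA genes, beside 0.0004 over all genes tested. For 8 members every PM2.5 library lay below every control, as for 25.8% of all genes tested. These were the called genes other than MT-TS1, and MT-TA. No set test was run on these lists. PM2.5 replicate 1 and control replicate 3 stood apart from their groups in many members, and with both left out, an alternative added after seeing the data, 10 members were called lower with PM2.5 and 16 with lactoferrin plus PM2.5.

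**Figure D1:**
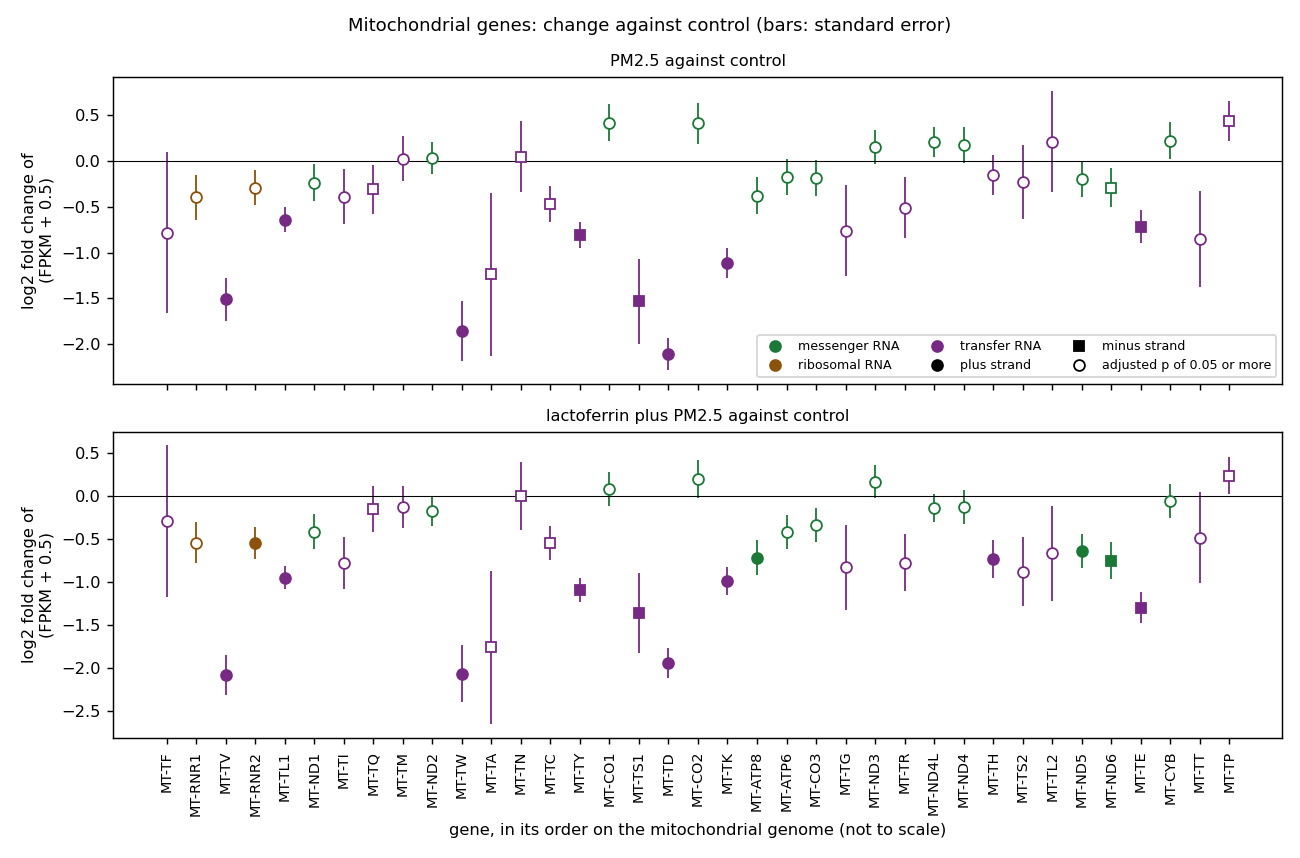
Log2 fold change of FPKM + 0.5 against control for each of the 37 mitochondrial genes in their order on the chromosome, above with PM2.5 and below with lactoferrin plus PM2.5, with bars for the standard error. Filled symbols had an adjusted p under 0.05: 8 transfer RNA genes above, and below 9 transfer, 3 messenger and 1 ribosomal RNA genes, all of them lower.

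MT-TD, the transfer RNA for aspartate, showed the most negative change of all members. It stood at 74.9, 85.3 and 98.6 FPKM in control replicates 1 to 3, at 22.1, 15.6 and 24.2 FPKM with PM2.5, and at 20.3, 23.1 and 25.2 FPKM with lactoferrin plus PM2.5. Every control library was above every exposed one. The exposed values stood for 19 to 29 fragments per library, when FPKM were turned back into fragments. The log2 fold change with PM2.5 was -2.10 ± 0.17 (SE), with an adjusted p of 3.48e-05 by limma.

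MT-TV, the transfer RNA for valine and also a structural part of the human mitochondrial ribosome, lies between the genes of its 2 ribosomal RNAs. Its controls were close together, at 97.5, 101 and 97.2 FPKM. With PM2.5 it was at 24.9, 48.4 and 37.0 FPKM, and after lactoferrin at 28.5, 17.7 and 26.7 FPKM. All 6 exposed libraries were below the controls, and the exposed groups overlapped each other. The change with PM2.5 was -1.51 ± 0.23 on the log2 scale (limma adjusted p = 0.00126).

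MT-TK, the transfer RNA for lysine, read 30.8, 24.2 and 32.8 FPKM in the controls, 14.6, 11.9 and 14.6 FPKM with PM2.5 and 17.5, 15.0 and 12.7 FPKM with lactoferrin plus PM2.5. Exposed libraries again all lay below the controls, and their values stood for 14 to 23 fragments per library. Its log2 fold change with PM2.5 was -1.11 ± 0.16, adjusted p = 0.000947 by limma.

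MT-TW, the transfer RNA for tryptophan, had 18.2, 16.0 and 8.43 FPKM in the controls and 3.95, 3.28 and 3.34 FPKM with PM2.5. Lactoferrin plus PM2.5 gave 1.56, 3.43 and 4.67 FPKM. The groups against control did not overlap, but these values stood for 2 to 19 fragments per library, when FPKM were turned back into fragments. The log2 fold change with PM2.5 was -1.85 ± 0.33 (limma adjusted p = 0.00252), and it is on a scale with 0.5 added, which understates the change of a low gene.

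MT-TS1, 1 of a pair of serine transfer RNA genes, was at 23.7, 43.8 and 11.6 FPKM in the controls, at 13.2, 8.88 and 4.12 FPKM with PM2.5 and at 9.24, 8.44 and 9.21 FPKM with lactoferrin plus PM2.5. Here control replicate 3 lay below PM2.5 replicate 1, so those groups overlapped. Its change of -1.53 ± 0.46 on the log2 scale was called (limma adjusted p = 0.0301). The call was lost without control replicate 1 or 2, without PM2.5 replicate 2 or 3, in a fit of the 6 compared libraries and with no filter on low values, with an adjusted p of up to 0.101. It rested on 5 to 50 fragments per library.

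The other 3 called genes were more abundant or less changed. MT-TY, for tyrosine, had 131, 140.0 and 119 FPKM in the controls, 89.5, 65.8 and 75.7 FPKM with PM2.5, and 63.6, 71.5 and 53.9 FPKM after lactoferrin. No exposed library reached the lowest control, and the log2 fold change with PM2.5 was -0.81 ± 0.14 (limma adjusted p = 0.00233). MT-TE, for glutamate, had 39.7, 56.0 and 54.8 FPKM in the controls, 28.8, 31.5 and 32.9 FPKM with PM2.5, and 18.5, 17.7 and 26.7 FPKM after lactoferrin. The 3 groups of MT-TE did not overlap and ran in that order. Its log2 fold change with PM2.5 was -0.72 ± 0.18 (limma adjusted p = 0.0124), and with control replicate 3 and PM2.5 replicate 1 both left out the adjusted p was 0.0875.

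MT-TL1, for leucine, is the gene where the protein MTERF1 binds and can end transcription downstream of the ribosomal RNAs. It was the most abundant of the 8, at 597, 559 and 673 FPKM in the controls, 439, 375 and 399 FPKM with PM2.5, and 358, 322 and 300.0 FPKM after lactoferrin. Again the 3 groups did not overlap and ran in that order. Its log2 fold change with PM2.5 was -0.64 ± 0.13 (limma adjusted p = 0.00553).

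**Figure D2:**
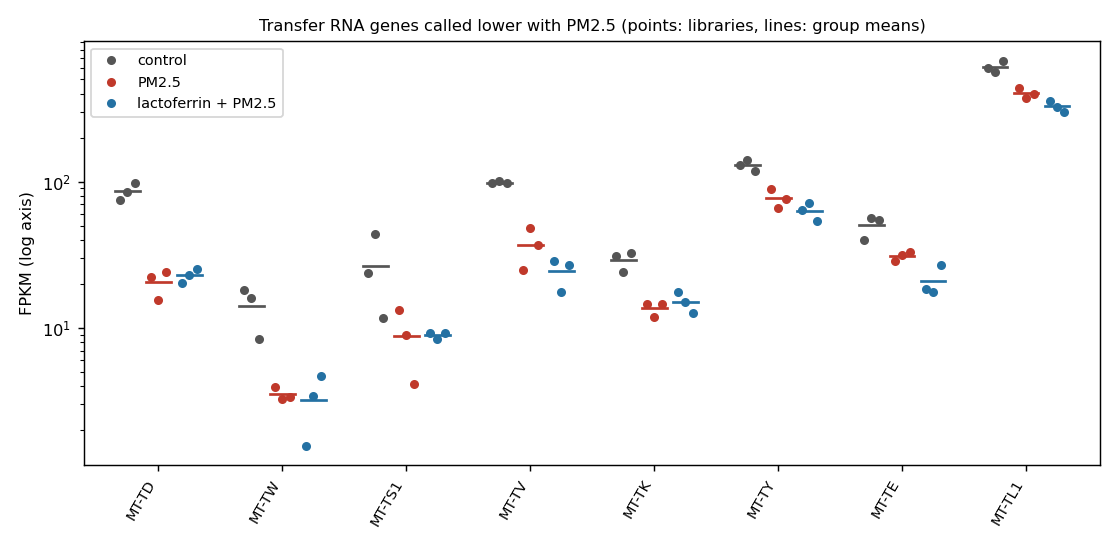
FPKM on a log axis of the 8 transfer RNA genes called lower with PM2.5, with a point for each library and a line for each group mean (3 libraries a group). For MT-TD the 3 controls sit between 74.9 and 98.6 FPKM and all 6 exposed libraries between 15.6 and 25.2 FPKM, while the points of MT-TS1 overlap.

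The remaining 14 transfer RNA genes were not called with PM2.5, and they included the most abundant. MT-TC, for cysteine, was at 1528, 1771 and 1471 FPKM in the controls, 1536, 1059 and 1019 FPKM with PM2.5 and 1331, 1097 and 965 FPKM after lactoferrin. PM2.5 replicate 1 lay among its controls, and its change of -0.47 ± 0.20 had an adjusted p of 0.0896 by limma. MT-TP, for proline, was at 897, 996 and 1085 FPKM in the controls, 1912, 1299 and 1068 FPKM with PM2.5 and 1319, 1147 and 1150 FPKM after lactoferrin. It had the highest value of all members for the change with PM2.5, 0.43 on the log2 scale, without passing the test (limma adjusted p = 0.148). MT-TN, for asparagine, was at 835, 869 and 307 FPKM in the controls, 968, 531 and 529 FPKM with PM2.5 and 785, 607 and 516 FPKM after lactoferrin, so control replicate 3 was the lowest of the 9 libraries.

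Below these, the levels of transfer RNA genes were low, and so was the depth behind them. Of the 22 genes, 13 had fewer than 20 fragments in at least 1 library. MT-TH (histidine) and MT-TR (arginine) averaged 59.1 and 57.2 FPKM in the controls, 53.4 and 38.4 FPKM with PM2.5, and 35.6 and 31.9 FPKM after lactoferrin. MT-TS2 (serine), MT-TG (glycine), MT-TI (isoleucine), MT-TM (methionine), MT-TQ (glutamine) and MT-TT (threonine) averaged between 12.3 and 30.1 FPKM in the controls. MT-TL2 (leucine), MT-TA (alanine) and MT-TF (phenylalanine) averaged 9.66, 8.92 and 2.95 FPKM there. MT-TA was at 0 fragments in 1 library and MT-TF in 2, and their log2 fold changes with PM2.5, -1.24 ± 0.89 for MT-TA and -0.78 ± 0.88 for MT-TF, had adjusted p-values of 0.31 and 0.52 by limma. The order of levels among transfer RNA genes, from MT-TC down to MT-TF, thus ran from 1589.9 to 2.95 FPKM in the control means.

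Transfer RNA genes of both strands were called lower with PM2.5, where 16.5% of all genes were. Of the 14 on the plus strand 5 were called and 12 had a negative change (median -0.70 on the log2 scale). Of the 8 on the minus strand 3 were called and 6 had a negative change (median -0.60). The sources used here do not give whether the counting used strand. Fragments of a gene and of RNA from the opposite strand cannot be told apart. Nor can mature transfer RNAs be told apart from uncut precursors in these values, and the labels describe the library preparation only as a standard Illumina one.

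The 2 ribosomal RNAs, the RNA core of the mitochondrial ribosome, were not called with PM2.5 in the fit above. With library weights both were called lower, in a fit that called 3742 of all 14454 genes lower, beside 2392 in the fit above. Without PM2.5 replicate 1, left out alone or together with control replicate 3, 1 was called lower. MT-RNR1, of the small subunit, was at 1803, 2625 and 1915 FPKM in the controls, 2342, 1434 and 1305 FPKM with PM2.5 and 1424, 1686 and 1353 FPKM after lactoferrin. MT-RNR2, of the large subunit, was at 7551, 8979.7 and 9457 FPKM in the controls, 9056, 7042 and 6091 FPKM with PM2.5 and 6113, 6204 and 6046 FPKM after lactoferrin. For both, PM2.5 replicate 1 lay within the range of the controls and the other 5 exposed libraries lay below the lowest control. The log2 fold changes with PM2.5 were -0.40 ± 0.24 for MT-RNR1 (limma adjusted p = 0.225) and -0.29 ± 0.19 for MT-RNR2 (limma adjusted p = 0.254).

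Among the 13 messenger RNAs, log2 fold changes with PM2.5 ran from -0.38 to 0.41 and 0 were called, with adjusted p-values by limma between 0.141 and 0.9. Of the 13, 7 were positive and 6 negative. Complex IV, cytochrome c oxidase, which passes electrons to oxygen, has MT-CO1, MT-CO2 and MT-CO3. MT-CO1 was at 6432, 7146 and 6715 FPKM in the controls, 12338, 8499.8 and 7734 FPKM with PM2.5 and 8302, 7256 and 6712 FPKM after lactoferrin. It was the only messenger RNA whose PM2.5 libraries all lay above the controls after scaling, where 27.9% of all genes tested did so. MT-CO2 was at 7380.4, 7972 and 8673 FPKM in the controls, 14501, 10328 and 8806 FPKM with PM2.5 and 10742, 9792 and 8163 FPKM after lactoferrin. MT-CO3 was at 7066, 7475 and 7648.5 FPKM in the controls, 8645, 6519 and 5420.2 FPKM with PM2.5 and 6644, 6247 and 5360.0 FPKM after lactoferrin. The PM2.5 values of MT-CO2 were all above the controls as deposited and overlapped them after scaling. In all 3 genes PM2.5 replicate 1 was the highest of the 9 libraries.

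The log2 fold changes of MT-CO1, MT-CO2 and MT-CO3 with PM2.5 were 0.41 ± 0.20, 0.41 ± 0.22 and -0.19 ± 0.20. MT-CYB, the cytochrome b subunit and only mitochondrially encoded part of complex III, was at 3292, 3802 and 4304 FPKM in the controls, 5679.9, 4323 and 3852 FPKM with PM2.5 and 4138, 3804 and 3338 FPKM after lactoferrin. Its change of 0.22 on the log2 scale did not pass the test (limma adjusted p = 0.42).

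Complex V, the ATP synthase, has MT-ATP8 and MT-ATP6, whose genes share 46 bases. MT-ATP8 was at 1221, 1394 and 2027 FPKM in the controls, 1308, 1219 and 1093 FPKM with PM2.5 and 1038, 883 and 943 FPKM after lactoferrin. MT-ATP6 was at 6367, 7171 and 9667 FPKM in the controls, 7607, 6927 and 6426 FPKM with PM2.5 and 6518, 5804 and 5395 FPKM after lactoferrin. In both genes control replicate 3 was the highest library. Neither passed the test with PM2.5, at -0.38 (limma adjusted p = 0.183) for MT-ATP8 and -0.18 (limma adjusted p = 0.52) for MT-ATP6. Reads in the shared bases cannot be told apart between them.

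Complex I, the NADH dehydrogenase, takes the other 7. MT-ND5, a proton-pumping subunit near the end of the plus-strand genes, was at 1230.1, 1466 and 2032 FPKM in the controls, 1538, 1348 and 1301 FPKM with PM2.5 and 1063, 1017 and 994 FPKM after lactoferrin. MT-ND6, the only messenger RNA on the minus strand, was at 1113, 1391 and 1959.7 FPKM in the controls, 1272, 1191 and 1211 FPKM with PM2.5 and 985, 871 and 822 FPKM after lactoferrin. Both had their highest value in control replicate 3 and their 3 lowest values in the pretreated cells. MT-ND1 ran from 4346 to 6169 FPKM in the controls, 3996 to 5151 FPKM with PM2.5 and 3416 to 4554 FPKM after lactoferrin, and MT-ND2 from 4667 to 6096, 5074 to 6245 and 4381 to 5370.2 FPKM. MT-ND3 ran from 2991 to 3498, 3100.4 to 4862 and 3337 to 4089.5 FPKM, MT-ND4L from 2724 to 3327, 3225 to 4206 and 2682 to 3079 FPKM, and MT-ND4 from 5209 to 7374, 6528 to 8229 and 5229 to 6627 FPKM. In these 5 genes the control and PM2.5 ranges overlapped, and their log2 fold changes ran from -0.24 for MT-ND1 to 0.20 for MT-ND4L.

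With lactoferrin before PM2.5, no mitochondrial gene passed the test against PM2.5 alone. Few genes did anywhere, 7 of 14454 or 0.0484%, so this count is near the background. limma on the log values called 0 members, with adjusted p-values between 0.327 and 0.983, limma-voom on the rebuilt fragments also called 0, and 4 members had an unadjusted p under 0.05 (MT-TV, MT-TL1, MT-TH and MT-TE), a level that 12.2% of all genes reached. The fit with library weights called 5 members lower, and 2034 genes in all. Of the 37 log2 fold changes 30 were negative, with a median of -0.24 beside -0.0029 over all genes, and 7 members lay lower in every pretreated library than in every PM2.5 library, as 11.6% of all genes did. These were MT-TL1, MT-TE, MT-TH, MT-ATP8, MT-ND4L, MT-ND5 and MT-ND6. The 8 genes that fell with PM2.5 had log2 fold changes against PM2.5 alone of 0.16 for MT-TD, -0.21 for MT-TW, 0.17 for MT-TS1, -0.57 for MT-TV, 0.12 for MT-TK, -0.29 for MT-TY, -0.58 for MT-TE and -0.31 for MT-TL1. Their adjusted p-values by limma ran from 0.327 for MT-TE to 0.88 for MT-TS1. The 95% interval of this difference for MT-TD ran from -0.23 to 0.56, so the data bound it without showing that the groups are alike.

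Against control, 13 of the 37 genes were lower in the pretreated cells and 0 higher, where 38.2% of all genes were called, 18.5% lower and 19.6% higher. This comparison shares its controls with the one for PM2.5, so their values are set side by side and not counted as separate evidence. They were 9 of the 22 transfer RNA genes, 3 of the 13 messenger RNA genes and 1 of the 2 ribosomal RNA genes. The transfer RNA log2 fold changes against control were -2.08 for MT-TV, -2.06 for MT-TW, -1.94 for MT-TD, -1.36 for MT-TS1, -1.30 for MT-TE, -1.10 for MT-TY, -0.99 for MT-TK, -0.95 for MT-TL1 and -0.73 for MT-TH, with limma adjusted p-values from 4.42e-05 for MT-TD to 0.0439 for MT-TS1. MT-TC, at -0.55, lay just over the threshold (limma adjusted p = 0.0508). For 17 members every pretreated library lay below every control, as for 23.4% of all genes. The median over the 22 was -0.80, beside -0.18 over the messenger RNAs and -0.0073 over all genes.

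The messenger RNAs called lower were MT-ND6 at -0.75 ± 0.21 (limma adjusted p = 0.0199), MT-ATP8 at -0.72 ± 0.21 (limma adjusted p = 0.0222) and MT-ND5 at -0.64 ± 0.20 (limma adjusted p = 0.0296). MT-RNR2 was called at -0.55 ± 0.19 (limma adjusted p = 0.0442), and MT-RNR1 had about the same change, -0.55 ± 0.24, without passing (limma adjusted p = 0.103). All 4 called genes lay lower in each pretreated library than in each control. Several of these calls rested on single libraries. That of MT-RNR2 was lost, with an adjusted p of up to 0.11, without control replicate 2 or 3, without PM2.5 replicate 2 and without any 1 pretreated library. The calls of MT-ND6 and MT-ND5 were lost without pretreated replicate 2 or 3, that of MT-ND5 also without control replicate 2, and that of MT-ATP8 without pretreated replicate 2. With no filter on low values all 4 calls were lost. In the fit of the 6 compared libraries those of MT-RNR2 and MT-ND5 were lost. Among the transfer RNAs, MT-TH lost its call without control replicate 1 or 2 or pretreated replicate 1, and MT-TS1 without control replicate 1 or 2, PM2.5 replicate 2 or any 1 pretreated library. Both lost it with no filter on low values, MT-TH also in the fit of the 6 compared libraries and MT-TS1 with no scaling factor. In all, 8 members were called without pretreated replicate 2. MT-CO1, MT-CO2 and MT-ND3 had the highest values against control among the messenger RNAs, 0.08, 0.20 and 0.16, with limma adjusted p-values of 0.79, 0.51 and 0.528.

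The 37 genes took 23.2%, 26.3% and 29.2% of the summed FPKM in the controls, 31.4%, 26.5% and 24.4% with PM2.5, and 23.6%, 23.1% and 21.97% after lactoferrin. The controls overlapped both exposed groups, and the pretreated libraries all lay below the PM2.5 ones. PM2.5 replicate 1 and control replicate 3 were the highest of the 9. As a share of rebuilt fragments, which weights long genes more, the values were 6.35%, 7.24% and 8.01%, then 9.33%, 7.22% and 6.52%, then 6.95%, 6.37% and 5.79%, each with a 95% Wilson interval of at most 0.0132 points to either side. On that scale all 3 groups overlapped. The interval covers counting error only. In bulk RNA, fewer mitochondria or cells and less RNA per mitochondrion or cell cannot be told apart.

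Split by kind, the messenger RNA share of the FPKM sum was 18.5% to 23.8% in the controls, 20.5% to 26.1% with PM2.5 and 18.2% to 19.9% after lactoferrin. The controls overlapped both exposed groups, which did not overlap each other. The ribosomal RNA share was 3.17%, 3.96% and 3.93% in the controls, 3.65%, 2.95% and 2.63% with PM2.5 and 2.37%, 2.67% and 2.64% after lactoferrin. The transfer RNA share was 1.53%, 1.69% and 1.45% in the controls, 1.68%, 1.26% and 1.21% with PM2.5 and 1.30%, 1.18% and 1.16% after lactoferrin. For ribosomal and transfer RNA all 3 pretreated libraries were below all 3 controls, and the PM2.5 group overlapped the controls. MT-TC, MT-TP, MT-TN and MT-TL1 made up most of the transfer RNA share, so the large changes of rarer genes hardly moved it.

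**Figure D3:**
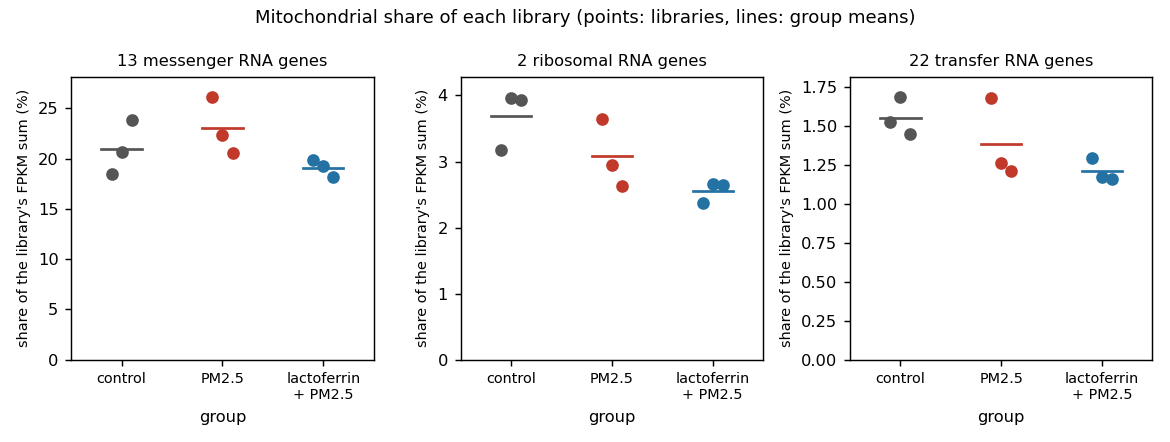
Share of each library's FPKM sum taken by the 13 messenger, 2 ribosomal and 22 transfer RNA genes of the mitochondrial chromosome, in percent, with a point for each library and a line for each group mean. Messenger RNA shares of both exposed groups overlap the controls, while the pretreated libraries lie below the controls for ribosomal RNA (2.37% to 2.67% against 3.17% to 3.96%) and transfer RNA.

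Within the mitochondrial messenger RNAs the balance between genes differed between groups. Each messenger RNA was expressed as a percentage of the summed FPKM of all 13 in its library, which takes out the total mitochondrial level. With PM2.5, 4 of the 13 were higher in every library than in every control, 5 were lower in every library, and 4 overlapped. Over all genes tested, 31.1% did not overlap between these groups on the same scale. Nearly all of those genes are nuclear, and dividing them by the mitochondrial sum brings the spread of that sum into their values. The sum ran from 54460.2 to 68982.5 FPKM in the controls and from 57767.4 to 81578.5 FPKM with PM2.5. The 31.1% is therefore not a like background for the 13. No test was run on the percentages of the 13 messenger RNAs, which sum to a fixed total. A higher share of some genes therefore lowers that of others.

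The shares that were higher with PM2.5 belonged to MT-CO1, MT-CO2, MT-CYB and MT-ND4L. MT-CO1 made up 11.8%, 11.8% and 9.73% in the controls, 15.1%, 13.3% and 13.4% with PM2.5 and 13.1%, 12.8% and 13.2% after lactoferrin. MT-CO2 made up 13.6%, 13.2% and 12.6% in the controls, 17.8%, 16.1% and 15.2% with PM2.5 and 17.0%, 17.2% and 16.0% after lactoferrin. In both, no exposed library came down to the controls. MT-CYB averaged 6.19% ± 0.129 (SD, n = 3) in the controls, 6.79% ± 0.152 with PM2.5, and 6.55% to 6.69% in the pretreated libraries, and MT-ND4L 4.98%, 5.39% and 5.04%.

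The lower shares belonged to MT-ND1, MT-ATP8, MT-ATP6, MT-CO3 and MT-ND5. MT-ND1 made up 7.98%, 8.03% and 8.94% in the controls, 6.31%, 6.66% and 6.92% with PM2.5 and 7.21%, 6.89% and 6.71% after lactoferrin. MT-ATP8 made up 2.24%, 2.31% and 2.94%, then 1.603%, 1.90% and 1.89%, then 1.64%, 1.55% and 1.85%. MT-CO3 made up 12.97%, 12.4% and 11.1%, then 10.6%, 10.2% and 9.38%, then 10.5%, 11.0% and 10.5%. MT-CO3 thus went down while the other complex IV genes went up, and the group means of the summed complex IV share were 36.4%, 40.4% and 40.5% in controls, PM2.5 and pretreated cells. Complex V took 15.0%, 12.2% and 12.1%, and complex I 42.4%, 40.6% and 40.9%. For complexes IV and I the PM2.5 libraries overlapped the controls, and for complex V they lay below them. The pretreated libraries overlapped the controls in none of these complexes.

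**Figure D4:**
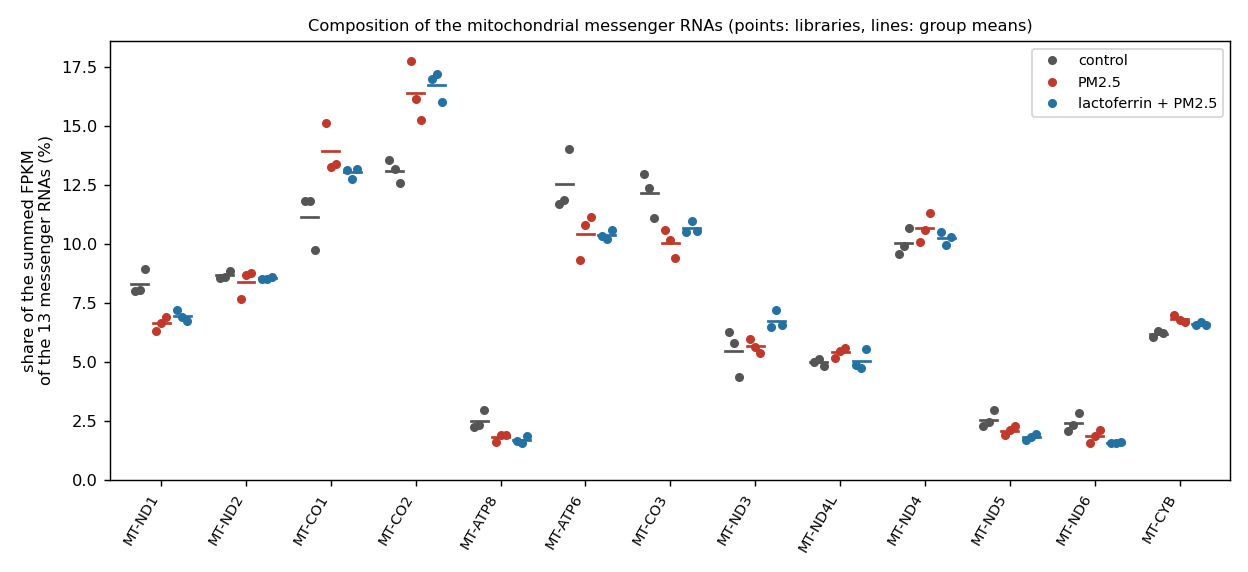
Share of the summed FPKM of the 13 mitochondrial messenger RNAs taken by each of them, in percent, with a point for each library and a line for each group mean. MT-CO1 and MT-CO2 lie higher in all exposed libraries than in the controls, and MT-ND1, MT-ATP8, MT-ATP6, MT-CO3 and MT-ND5 lie lower.

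In the pretreated cells 2 of the 13 shares did not overlap those with PM2.5 alone. Of all genes 24.9% did not, again not a like background, since the spread of the mitochondrial sum enters nuclear genes. MT-ND3 was higher, 6.74% on average beside 5.65%, and MT-CO1 lower, 13.03% beside 13.9%. Against control, 4 shares were higher and 6 lower, where 38.3% of all genes did not overlap, with the same limit. Those 6 included MT-ND6, which made up 2.04%, 2.30% and 2.84% in the controls, 1.56%, 1.86% and 2.097% with PM2.5, and 1.56%, 1.53% and 1.61% after lactoferrin.

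Ratios between neighbouring genes restate the levels above on a scale that needs no library total. They were chosen after the values were seen, with called genes as numerators and some of the higher messenger RNAs as denominators. They are therefore a description, with no test, and support nothing further. The FPKM of MT-TD was 1.01%, 1.07% and 1.14% of that of MT-CO2, the gene that starts at the next base, in the controls, 0.152%, 0.151% and 0.275% with PM2.5 and 0.189%, 0.236% and 0.309% after lactoferrin. MT-TV was 1.29%, 1.12% and 1.03% of MT-RNR2, which follows it directly, in the controls, 0.275%, 0.688% and 0.608% with PM2.5 and 0.466%, 0.286% and 0.442% after lactoferrin. In both ratios every exposed library lay below every control.

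MT-TW stood at 0.391%, 0.307% and 0.138% of MT-ND2, directly before it, in the controls, and at 0.0632%, 0.0589% and 0.0658% with PM2.5. MT-TY against MT-CO1 averaged 1.92%, 0.826% and 0.852% in controls, PM2.5 and pretreated cells, MT-TE against MT-CYB 1.32%, 0.697% and 0.571%, and MT-TL1 against MT-ND1 12.1%, 9.10% and 8.29%. The group ranges of the controls and of the exposed cells did not overlap in any of these 4. With other neighbours some did. MT-TL1 against MT-RNR2, directly before it, was 7.91%, 6.22% and 7.11% in the controls and 4.85%, 5.33% and 6.55% with PM2.5. MT-TE against MT-ND6, beside it on the same strand, was 3.57%, 4.03% and 2.798% in the controls and 1.88%, 2.04% and 3.25% after lactoferrin. MT-TK against MT-ATP8 was 2.52%, 1.73% and 1.62% in the controls and 1.68%, 1.70% and 1.35% after lactoferrin. In each of these 3 the named groups overlapped. MT-TY was also lower relative to MT-TC, the transfer RNA gene beside it on the same strand, at 8.18% ± 0.332 (SD, n = 3) in the controls, 6.49% ± 0.838 with PM2.5 and 5.63% ± 0.869 after lactoferrin.

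**Figure D5:**
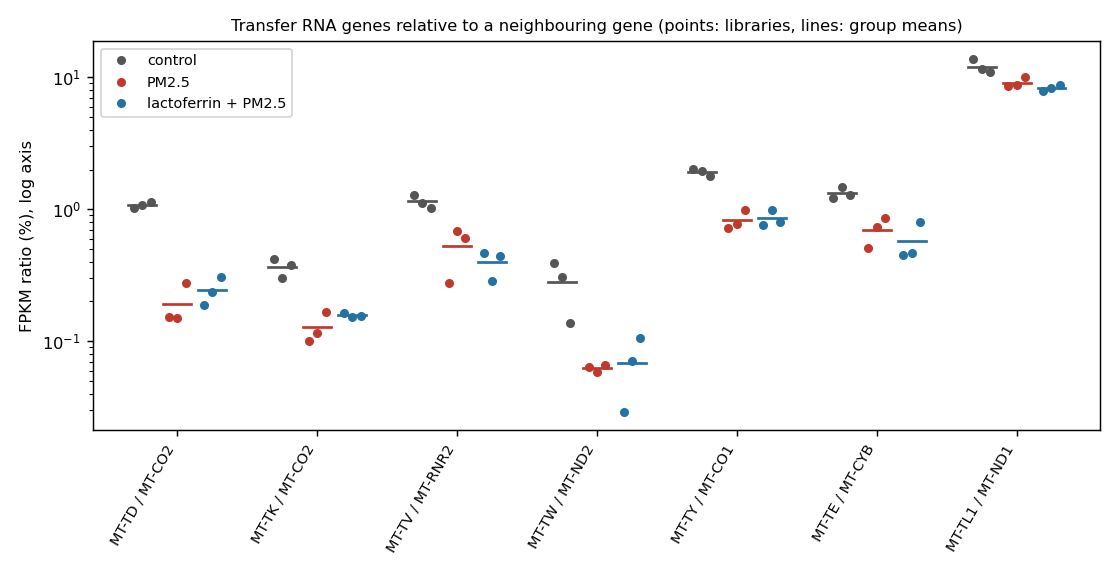
FPKM of 7 transfer RNA genes as a percentage of the FPKM of a ribosomal or messenger RNA gene beside or near them, on a log axis, with a point for each library and a line for each group mean. In these 7 ratios, chosen after their values were seen, every control lies above every exposed library, for MT-TD against MT-CO2 at 1.01% to 1.14% against 0.151% to 0.309%. Ratios of MT-TL1, MT-TE and MT-TK to other neighbours overlapped.

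Other pairs kept their balance to within the spread of the replicates. MT-RNR1 was 20.3% to 29.2% of MT-RNR2 over the 9 libraries, and MT-ND6 was 82.7% to 96.5% of MT-ND5, the gene that ends beside it, with groups that overlapped. MT-ND6 relative to MT-CYB, however, was 33.8%, 36.6% and 45.5% in the controls, 22.4%, 27.5% and 31.4% with PM2.5, and 23.8%, 22.9% and 24.6% after lactoferrin. MT-ATP8 relative to MT-ATP6 was 19.2%, 19.4% and 21.0% in the controls, 17.2%, 17.6% and 17.0% with PM2.5, and 15.9%, 15.2% and 17.5% after lactoferrin. In both of these every exposed library lay below every control.

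The nuclear genes that act on mitochondrial DNA and RNA were described as 5 lists of 81 genes, of which 78 were tested. With PM2.5, 24 rose and 3 fell, 30.8% and 3.85% of the tested genes, where 18.5% and 16.5% of all genes did so. Their median log2 fold change was 0.19. By list, the genes called higher were 4 of 17 for transcription and DNA, 8 of 25 for RNA processing and stability, 6 of 14 for transfer RNA modification, 3 of 13 for translation factors and 3 of 9 for regulators of mitochondrial biogenesis. The fallen genes were 1 each of RNA processing, translation factors and regulators. With control replicate 2 or PM2.5 replicate 2 left out 14 were called higher, and with PM2.5 replicate 3 left out 15 were.

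POLRMT, the RNA polymerase that transcribes mitochondrial DNA, averaged 7.59 ± 0.885 FPKM (SD, n = 3) in the controls, 13.8 ± 0.682 FPKM with PM2.5 and 13.8 ± 1.20 FPKM after lactoferrin. Its log2 fold change with PM2.5 was 0.78 ± 0.09 (limma adjusted p = 0.000307). Its initiation factor TFB2M rose by 0.31 ± 0.09 (limma adjusted p = 0.0203). TFAM, which packages and opens mitochondrial DNA, was at -0.05, the elongation factor TEFM at 0.09 and the termination factor MTERF1 at -0.09, with limma adjusted p-values of 0.749, 0.471 and 0.534.

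ELAC2, which cuts the 3′ ends of transfer RNAs, rose by 0.30 ± 0.09 with PM2.5 (limma adjusted p = 0.0214). SUPV3L1, the helicase of the mitochondrial RNA-degrading complex, rose by 0.26 ± 0.09 (limma adjusted p = 0.0469), while its partner nuclease PNPT1 was at 0.23 (limma adjusted p = 0.183). LRPPRC, which stabilises the messenger RNAs, was at 0.07 (limma adjusted p = 0.697), and its partner SLIRP fell by 0.49 on the log2 scale (limma adjusted p = 0.0458). PPARGC1A, a coactivator that drives mitochondrial biogenesis, averaged 2.15 FPKM in the controls, 0.526 with PM2.5 and 0.480 after lactoferrin, and its change with PM2.5 was -1.42 ± 0.16 on the log2 scale (limma adjusted p = 0.000189). In the same list of regulators, its relatives PPARGC1B and PPRC1 and the nuclear receptor ESRRA, named after their values were seen, rose by 0.52, 0.46 and 0.79 (limma adjusted p = 0.019, 0.0177 and 0.00129). NRF1, a transcription factor of the same programme, was at -0.02 (limma adjusted p = 0.905).

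In the pretreated cells 0 of the 78 genes were called against PM2.5 alone, with a median of 0.04. Against control 30 were higher and 3 lower, 38.5% and 3.85% of the 78, where 19.6% and 18.5% of all genes were. POLRMT was at 0.78, TFB2M at 0.44, TEFM at 0.35, PNPT1 at 0.37 and PPARGC1A at -1.47, with limma adjusted p-values of 0.000243, 0.00341, 0.0136, 0.0466 and 0.000117. ELAC2 and SUPV3L1 were at 0.35 and 0.33 (limma adjusted p = 0.0103 and 0.0162). TFAM at 0.14, MTERF1 at 0.245, LRPPRC at 0.16, NRF1 at -0.10 and SLIRP at -0.19 were not called (limma adjusted p from 0.0891 to 0.402).

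Nuclear genes for subunits of the same respiratory complexes went lower with PM2.5 where they passed the test. Of 73 tested, 18 fell and 0 rose, which were 9 of 35 for complex I, 2 of 9 for complex III, 2 of 11 for complex IV and 5 of 18 for complex V. That is 24.7%, where 16.5% of all genes fell, and the median over the 73 was -0.33. The members of each list with the smallest adjusted p were NDUFS5 (-0.92) and NDUFC2 (-0.57), UQCRC2 (-0.37) and UQCRB (-0.52), COX4I1 (-0.58) and COX7B (-0.54), and ATP5ME (-0.62) and the ATP synthase inhibitor ATP5IF1 (-0.74), with limma adjusted p-values from 0.00185 to 0.0353. The count depended on single libraries: it was 4 without control replicate 1, 11 without control replicate 2, 30 without control replicate 3, 7 and 4 without PM2.5 replicates 2 and 3, and 29 without pretreated replicate 1. In the pretreated cells 0 were called against PM2.5, with a median of 0.30, where 0.0484% of all genes were called. Against control 4 were higher and 2 lower, 5.48% and 2.74% of the 73, where 19.6% and 18.5% of all genes were.

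The deposited values stood for 15312969 to 18820464 fragments per library assigned to genes, and the messenger and ribosomal RNA genes had at least 3071 fragments in every library. Of 12 proximal tubule markers 10 were below 1 FPKM in all 9 libraries and SLC22A6 was at 0, while PAX8 averaged 52.2 FPKM in the controls. The epithelial markers KRT8, KRT18, KRT19 and EPCAM were at 1 FPKM or more in every library. CDH1 was below 1 FPKM in all 9 libraries, and KRT7 was below it in every exposed library. With PM2.5, KRT8, KRT19 and KRT7 fell by 0.66, 0.36 and 1.15 on the log2 scale, and PAX8 and MME rose by 0.60 and 0.72 (limma adjusted p from 0.000311 to 0.0473). KRT18 was at 0.20 and EPCAM at -0.32 (limma adjusted p = 0.299 and 0.145). With lactoferrin plus PM2.5 against control, 1 epithelial marker was called higher, KRT18 at 0.50 (limma adjusted p = 0.0189), and 2 lower. Of the nuclear RNAs kept as a mark of RNA quality, NEAT1 rose by 0.85 with PM2.5 and by 0.78 with lactoferrin plus PM2.5 against control (limma adjusted p = 0.00121 and 0.00155). MALAT1 was at -0.20 and 0.17 (limma adjusted p = 0.441 and 0.499), and the other 2 were below 1 FPKM in all libraries. All 6 distal and collecting duct markers and 5 of 6 immune markers were below 1 FPKM throughout. The 8 fibroblast and endothelial markers summed to 7.02 to 8.89 FPKM in the controls and 2.35 to 2.67 FPKM with PM2.5. After lactoferrin they summed to 1.93 to 2.15 FPKM. COL1A1 was the highest of them in every library, averaging 6.77, 1.42 and 1.14 FPKM in controls, PM2.5 and pretreated cells. It was called lower with PM2.5 (limma adjusted p = 1.32e-05). DCN went the other way, averaging 0.559, 1.01 and 0.738 FPKM. Its rise of 0.48 on the log2 scale with PM2.5 was called (limma adjusted p = 0.0198). The part of these marker and RNA quality differences in the results above was not tested.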

How the data were processed

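RNA of HK-2 cells was measured in 9 libraries, and the sample labels gave the groups. Reads, per the submitters' processing notes, which give neither order nor settings, were handled with HISAT2 2.1.0, Trimmomatic 0.38, featureCounts 1.6.0, DESeq2 1.22.1, CASAVA, MultiQC and FastQC on GRCh38. Not given in the sources used here are the annotation release, the strand setting, the treatment of reads matching several places, and whether single reads or fragments were counted. The authors deposited 1 table per sample of FPKM for 58884 genes. The unit was inferred from the values. Multiplied by GENCODE 29 exon length, 85.9% to 87.2% of low values per library (at most 200 fragments) were whole multiples of a step within 0.05, which gave the rebuilt fragments, and the total per library differed from that of the step by 0.14% to 0.41%.

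FPKM were divided by an unweighted trimmed mean of M values factor (trims 0.3 and 0.05, factors 0.93 to 1.03). A model of log2(FPKM + 0.5) over all 9 libraries with a mean per group was fitted with limma 3.58.1 under R 4.3.3 (eBayes, trend and robust). P-values were adjusted by Benjamini-Hochberg over the 14454 genes with at least 0.5 FPKM in at least 3 libraries. Levels in the text are the deposited FPKM. Whether groups overlap was judged on the modelled scale for genes, and on the percentages as given for shares and ratios. The 37 members were found by symbol, and all were named. The genes named from the nuclear gene expression and respiratory lists were 12 listed regulators and the 2 called genes of each respiratory list with the smallest adjusted p. PPARGC1B, PPRC1 and ESRRA were added after their values were seen. The members and lists were chosen with earlier results of these data known. The scripts were tested on simulated data. Alternatives covered scaling, pseudocount, filters, a replicate block, library weights, limma-voom with the rebuilt fragments, 2-group fits and the removal of single libraries. Plots used matplotlib 3.10.9 (Python 3.11.15).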

Additional observations from a re-analysis of the deposited data

How the results depend on the processing

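Of the calls with PM2.5 against control, those of MT-TD, MT-TV, MT-TW, MT-TK, MT-TY and MT-TL1 held under all 22 alternatives, as did the calls of these 6 genes and MT-TE for lactoferrin plus PM2.5 against control. Depth limits the transfer RNA genes most, since 13 of 22 had fewer than 20 fragments in some library. Over member values and alternatives, 790 of 813 with PM2.5 against control kept their direction and side of the threshold, 7 lost the call, 15 gained one and 1 reversed. Uncalled values that changed sign, 23 of them, are counted among the 790. In pretreated cells against PM2.5 the counts were 808 kept and 5 gained, with 37 sign changes, and against control 749 kept, 32 lost and 32 gained, with 22. MT-TN reversed, from 0.04 to -0.73 (limma adjusted p = 0.0448), with control replicate 3 and PM2.5 replicate 1 both left out, a setting added after seeing the data.

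Members called lower with PM2.5 were 13 with library weights and 7 to 10 leaving out 1 library. Against PM2.5 alone, pretreated cells had 5 with library weights. Against control they had 22 with library weights, 7 with no filter, and 8 to 16 leaving out 1 library. The weights were estimated gene by gene, because the default estimate did not converge. With weights, 3991 of all 14454 genes were called higher and 3742 lower with PM2.5, where the main fit called 2670 and 2392. Pretreated against PM2.5 they were 996 and 1038 (main fit 3 and 4), and against control 4146 and 4110 (main fit 2837 and 2681). Whether replicate numbers pair the samples was not settled. Correlations of same-numbered deviations ran from -0.068 to 0.179, and those of differently numbered ones from -0.179 to 0.136. A batch shared by number could be weak or confined to some genes, so these values cannot exclude it. With the replicate block, 9 members were called lower with PM2.5, 0 and 14 in the other comparisons, and limma-voom gave 9, 0 and 14.

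For the 5 nuclear gene expression lists with PM2.5, genes called higher were 40 with library weights, 15 with both named libraries left out and 14 to 27 leaving out 1 library, and those called lower were 1 with no filter and 5 with weights. Pretreated against PM2.5, weights gave 10 higher and 3 lower. Pretreated against control, leaving out 1 library gave 18 to 28 higher and 1 to 3 lower. The lower calls there were 1 with no filter, 1 in the fit of 6 libraries, 1 with both libraries left out and 6 with weights. For the 4 respiratory lists with PM2.5, genes called lower were 4 with no filter, 36 with the replicate block, 52 with weights, 30 in the fit of 6 libraries and 4 to 30 leaving out 1 library. Pretreated against PM2.5, weights gave 32 higher, where that fit called 996 of all 14454 genes higher. All counts with weights here stand beside the larger counts over all genes in that fit, given above. Pretreated against control, higher calls were 0 with no filter, 1 in the fit of 6 libraries, 0 with both libraries left out and 0 to 6 leaving out 1. Lower calls were 0 with no filter, 7 with the block, 15 with weights, 0 in the fit of 6 libraries and 0 to 13 leaving out 1. The mean mitochondrial share was 7.20%, 7.69% and 6.37% of rebuilt fragments in controls, PM2.5 and pretreated cells, and without the ribosomal RNAs it was 22.5%, 24.4% and 20.3% of the FPKM sum. Apart from the filters and fits named, the cause of these shifts was not tested.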

Other observations

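Copies of mitochondrial sequence also lie in nuclear chromosomes, and 407 of their genes were listed. Of these, 4 had a mean of at least 5 FPKM, and they lie side by side on chromosome 1 of GRCh38. MTATP6P1 (633696 to 634376) averaged 1395 ± 248 FPKM (SD, n = 3) in the controls, 1299 ± 114 with PM2.5 and 1141 ± 72.5 after lactoferrin. MTCO3P12 (634376 to 634922) averaged 289, 232 and 195 FPKM, MTND2P28 (629640 to 630683) 123, 124 and 112 FPKM, and MTCO1P12 (631074 to 632616) 15.4, 32.4 and 20.7 FPKM. None passed the test in any of the 3 comparisons. The nearest was MTCO1P12 with PM2.5, at 0.93 ± 0.35 on the log2 scale (limma adjusted p = 0.0638). Reads of such copies and of the mitochondrial genes cannot be told apart where their sequences match.

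The order of mitochondrial levels per length changed at the top. In the controls MT-RNR2 averaged 8663 FPKM and MT-CO2 8008 FPKM. Their ranges over the controls overlapped, but within each control library MT-RNR2 was the higher. With PM2.5 MT-CO2 averaged 11212 FPKM and MT-CO1 9524 FPKM, ahead of MT-RNR2 at 7396 FPKM. In the pretreated cells the same 3 genes averaged 9566, 7423 and 6121 FPKM. Every PM2.5 library and every pretreated library had MT-RNR2 below both MT-CO2 and MT-CO1.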
